A study of Mus musculus with 4 samples.

Results

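The genes that build cholesterol and fatty acids were read out in libraries labelled as polarized CD4+ T cells of WT and of Mek1/2-tKO mice, in which the genes of MEK1 and MEK2, the kinases that activate ERK, are targeted. The cell type label of the Mek1/2-tKO libraries was met only in part. Cd4 was 13.3-fold lower in them than in WT, and markers of other cell types were higher, as given before the results on single genes. Map2k1 was 1.82-fold lower and Map2k2 was not lower, but a count over a whole gene does not measure the deletion. Mek1/2-tKO below means the libraries labelled so. The set holds 32 genes, taken by symbol, of the 54752 genes in the count tables. It consists of 7 genes of the mevalonate pathway, 11 of the branch from squalene to cholesterol, 5 regulators of the SREBP factors, 3 sterol transport genes and 6 genes of fatty acid synthesis. All 32 had enough counts to be tested, and no other filter was needed.

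Naïve CD4+ T cells from mouse spleen were stimulated with anti-CD3 and anti-CD28 antibodies and polarized in vitro towards T follicular helper (Tfh) cells by adding IL-6 and blocking TGF-β, IL-4, IFN-γ and IL-2 with antibodies. Viable cells were sorted again on day 3, and RNA was sequenced from 2 WT and 2 Mek1/2-tKO libraries. Mek1/2-tKO mice carry the Cd4-Cre transgene (Cd4-Cre+) and are homozygous for floxed alleles of Map2k1 (fl/fl) and of Map2k2 (fl/fl), on a C57BL/6 background. The labels give no age, do not say whether the WT mice carried Cre or floxed alleles, and do not say whether replicates came from separate animals or cultures, so that p-values measure the spread between these libraries, which may be technical. Cd4-Cre acts from the later stages of T-cell development in the thymus, so that both genes are targeted before the cells reach the spleen, also in T cells that do not become CD4+ cells.

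The mevalonate pathway turns acetyl-CoA into isoprenoid units, which squalene synthase and the enzymes after it build into cholesterol. The same acetyl-CoA, released from citrate by ATP citrate lyase, feeds fatty acid synthase and the desaturases. Many of these genes are targets of the SREBP factors, membrane proteins that SCAP escorts from the endoplasmic reticulum to the Golgi for cleavage when sterols are scarce and that INSIG proteins hold back when sterols are plentiful. SREBP2 acts mainly on cholesterol genes and SREBP1 mainly on fatty acid genes. Sterol excess also activates the LXR receptors, which induce the exporters Abca1 and Abcg1. T cells that start to divide need new membrane and raise lipid synthesis.

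In the libraries labelled Mek1/2-tKO, 23 of the 32 genes were lower than in WT and 1, the exporter Abca1, was higher. A gene was called where the adjusted p of edgeR's quasi-likelihood test was under 0.05 and the fold change at least 1.5. Of all 14330 tested genes, 16.4% were called lower and 19.3% higher by the same rule. At the adjusted p alone 27 of the 32 were lower, against 27.2% of all tested genes. The median log2 fold change was -0.77 over the 32 genes and 0.02 over all tested genes. The 6 genes of fatty acid synthesis had the lowest median of the 5 groups, at -1.51, and all 6 were called lower.

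The level of each gene is given as CPM, its counts scaled to a library of 1000000 counts after TMM scaling, in the order of replicates 1 and 2. The members together took 0.583 and 0.577% of all counts in WT and 0.227 and 0.246% in Mek1/2-tKO. Their summed level was 5644 and 5626 CPM in WT and 2399 and 2482 CPM in Mek1/2-tKO, a ratio of 2.31. Without Scd2, the most abundant member per kilobase in WT (203 RPKM), the sums were 4524 and 4531 CPM in WT against 2289 and 2368 CPM, a ratio of 1.94. In 30 of the 32 genes both Mek1/2-tKO libraries lay under both WT libraries, which held for 38.8% of all tested genes. The smallest two-sided p of an exact permutation test of 2 against 2 libraries is 0.333, and the adjusted p-values given here come from a model that shares its variance estimate across genes.

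**Figure D1:**
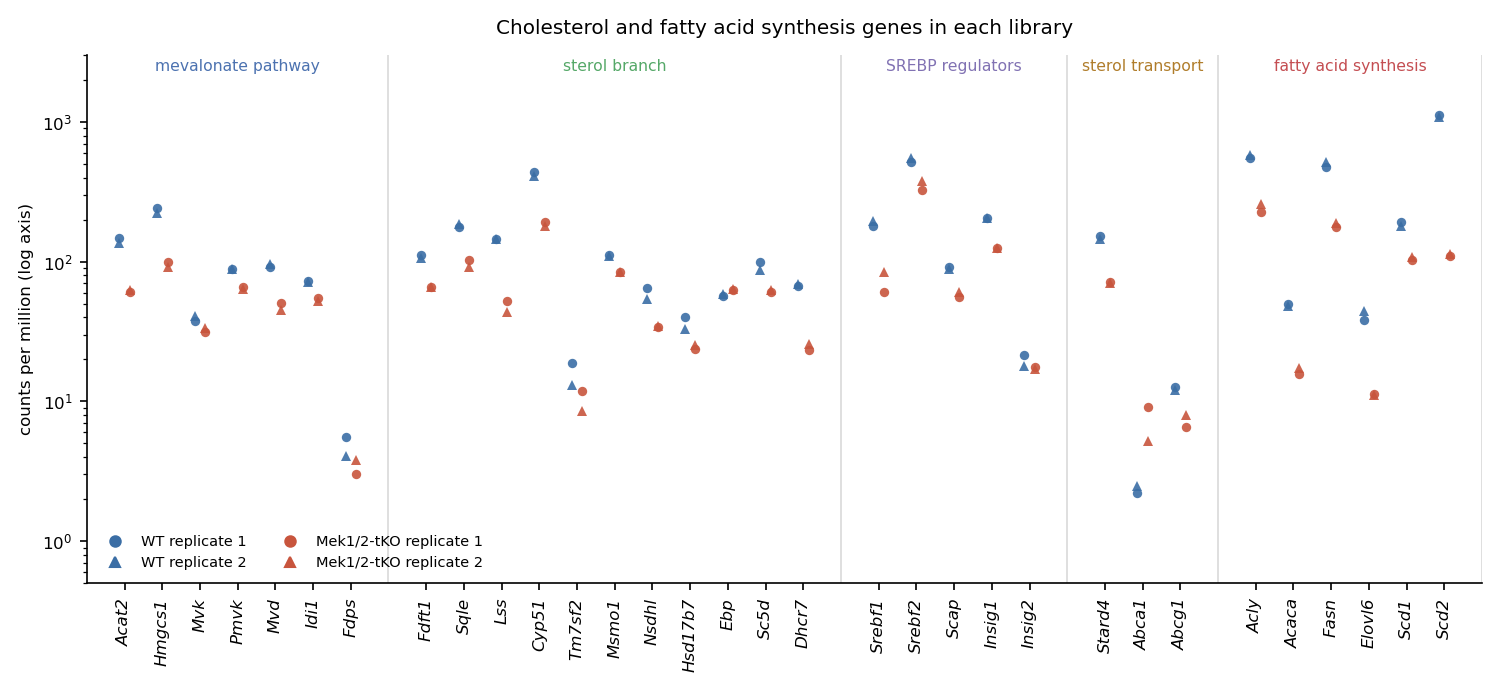
Level of each of the 32 genes in every library, in CPM on a log axis, grouped by role (circles, replicate 1. Triangles, replicate 2. Blue, WT. Red, Mek1/2-tKO). The red points lie under the blue ones in 30 genes, and above them in Ebp and Abca1.

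The labels of the libraries were checked before the results were read. Map2k1, which encodes MEK1, had 182 and 187 CPM in WT and 98.0 and 105 CPM in Mek1/2-tKO. Its log2 fold change was -0.86 (SE 0.08, edgeR adjusted p = 1.29e-06), while that of Map2k2, which encodes MEK2, was 0.15 (SE 0.08, edgeR adjusted p = 0.126). A count over a whole gene includes exons outside the floxed ones, so that it does not measure the deletion itself. The library totals lay between 16330802 and 18931090 counts, and mitochondrial genes took 1.56 to 1.62% of counts in WT and 1.99 to 2.24% in Mek1/2-tKO.

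The markers of the labelled cell type went partly against the label in both Mek1/2-tKO libraries. Cd4 had 297 and 289 CPM in WT and 18.8 and 25.1 CPM in Mek1/2-tKO. Of 12 T-cell identity markers, 7 fell, Thy1 rose, and Cd3d, Cd3g, Trbc1 and Trbc2 were not called. Besides Cd4, those that fell included Cd28, Cd5 and Cd2, by log2 fold changes of -1.99, -1.55 and -1.22. Cd3e, Cd247 and Trac fell by less, with -1.06, -0.79 and -0.98. The summed level of the 12 was 3000 and 3007 CPM in WT and 2611 and 2435 CPM in Mek1/2-tKO. Thy1 took 561 and 574 CPM of it in WT and 1021 and 998 CPM in Mek1/2-tKO. T-cell receptor and CD3 transcripts were present in all 4 libraries. Trbc2 had 393 and 370 CPM in WT and 397 and 351 CPM in Mek1/2-tKO, and Cd3e 91.8 and 91.7 CPM against 43.9 and 44.1 CPM.

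Markers of other cell types rose in the same 2 libraries. All 14 B-lineage markers were higher, with sums of 1334 and 1315 CPM in WT and 7205 and 7168 CPM in Mek1/2-tKO, and the B-cell receptor subunit Cd79b went from 93.4 and 89.7 CPM to 1274 and 1158 CPM. All 9 NK-cell markers were higher, with sums of 150 and 149 CPM in WT and 942 and 863 CPM in Mek1/2-tKO. All 7 gamma-delta and CD8 T-cell markers were higher, with sums of 74.4 and 63.6 CPM in WT and 422 and 379 CPM in Mek1/2-tKO. The 12 myeloid markers had sums of 99.5 and 89.8 CPM in WT against 563 and 512 CPM in Mek1/2-tKO, and all 9 that could be tested were higher. Most of these sums came from Mpeg1 and Ly6c2. Mpeg1 had 55.9 and 47.0 CPM in WT and 220 and 239 CPM in Mek1/2-tKO. Ly6c2 had 39.0 and 37.9 CPM in WT and 313 and 250 CPM in Mek1/2-tKO. Lyz2 reached only 10.2 and 6.23 CPM in Mek1/2-tKO, and Csf1r, Itgam and C1qa had too few counts to be tested. Of the 12, C1qa, Adgre1 and S100a8 had no count in WT, a level of at most 0.156 CPM by a limit of 3 counts, which covers counting error only. In these bulk samples, fewer cells of a type and less RNA per cell cannot be told apart, and the part of these markers in the results on lipid genes was not tested. Both Mek1/2-tKO libraries showed the same marker pattern, so that no result could be taken without it.

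**Figure D2:**
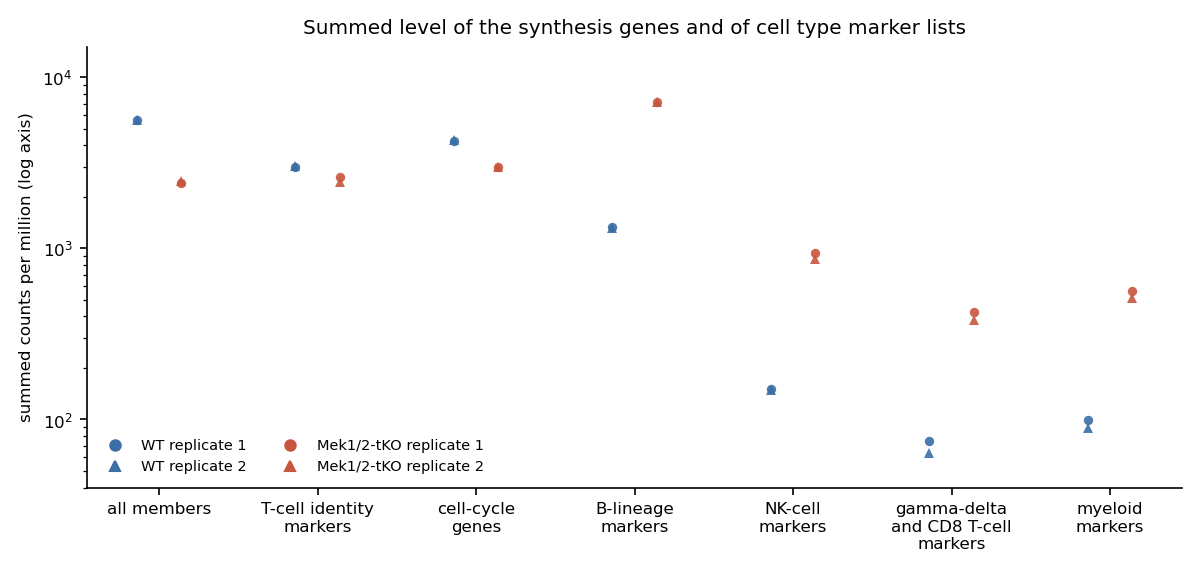
Summed level of the 32 lipid genes and of the marker lists in each library, in CPM on a log axis (circles, replicate 1. Triangles, replicate 2. Blue, WT. Red, Mek1/2-tKO). The sum of the lipid genes was 2.31 times as high in WT, while the B-lineage, NK-cell, gamma-delta and CD8, and myeloid sums were higher in Mek1/2-tKO.

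Since the members fell together, the stretch before the transcription start was read for 5 of them. RefSeq windows (GRCm38.p6, 250 bases before to 50 bases after the start) were matched for 25 of the 32 genes. Hmgcs1, Srebf2, Lss and Insig1 are shown because each was called lower and they stand for the mevalonate, sterol and regulator groups, and Ebp because it was the sterol enzyme that was not lower. Each sequence runs 5′ to 3′ on the gene's own strand from 250 bases before the RefSeq start to the last base before any annotated transcript of the count tables or RefSeq. Capitals mark matches on either strand to the SRE-type letters TCACNCCA, which SREBP is known to bind, to CCAAT, which NF-Y binds and which reads ATTGG on the other strand, to CACGTG, the E-box, and to GGGCGG, which Sp1 binds and which reads CCGCCC on the other strand.
Hmgcs1 (chr13:119690101-119690350, plus strand): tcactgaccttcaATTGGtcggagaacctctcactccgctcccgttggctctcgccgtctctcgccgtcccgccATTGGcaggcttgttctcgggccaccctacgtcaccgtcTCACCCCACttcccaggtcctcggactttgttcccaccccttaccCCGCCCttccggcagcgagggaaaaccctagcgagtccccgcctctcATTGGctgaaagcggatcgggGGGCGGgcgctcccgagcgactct
Srebf2 (chr15:82147019-82147180, plus strand): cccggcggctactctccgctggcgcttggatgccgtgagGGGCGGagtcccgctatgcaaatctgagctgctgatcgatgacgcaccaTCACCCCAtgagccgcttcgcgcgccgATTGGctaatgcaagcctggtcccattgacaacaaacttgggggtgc
Lss (chr10:76531355-76531587, plus strand): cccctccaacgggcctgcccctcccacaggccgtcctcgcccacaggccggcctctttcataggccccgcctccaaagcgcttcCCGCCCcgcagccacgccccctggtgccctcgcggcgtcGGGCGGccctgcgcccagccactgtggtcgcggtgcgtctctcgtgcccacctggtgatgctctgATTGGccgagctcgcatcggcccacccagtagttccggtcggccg
Insig1 (chr5:28071162-28071362, plus strand): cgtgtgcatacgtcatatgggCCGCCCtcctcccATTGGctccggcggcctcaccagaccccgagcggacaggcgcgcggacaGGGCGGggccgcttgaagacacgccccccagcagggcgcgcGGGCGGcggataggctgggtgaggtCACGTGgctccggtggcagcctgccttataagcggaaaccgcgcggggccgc
Ebp (chrX:8193513-8193762, minus strand): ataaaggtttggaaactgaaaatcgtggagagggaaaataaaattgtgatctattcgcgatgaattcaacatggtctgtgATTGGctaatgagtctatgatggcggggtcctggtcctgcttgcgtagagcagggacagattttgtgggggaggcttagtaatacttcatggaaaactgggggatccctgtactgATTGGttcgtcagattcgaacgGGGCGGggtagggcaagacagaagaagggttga

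The SRE-type letters TCACNCCA stood in the windows of Hmgcs1, Srebf2 and Msmo1, 3 of the 25, against 4.53% of the 9584 tested genes with a window. In Hmgcs1 the match began 137 bases before the start and in Srebf2 162 bases before it, and the Hmgcs1 match extended to the longer TCACNCCAC, which contains the shorter motif and stood in 1.38% of the windows of tested genes. CCAAT was found in 20 of the 25 windows (80%), against 43.1% of tested genes. GGGCGG was found in 21 of them (84%) against 68.1%, and CACGTG in 6 (24%) against 11.8%. Over all tested genes with a window, CCAAT was in 43.4% of those called lower and 42.6% of those called higher. For GGGCGG these shares were 75.0% and 56.6%, for CACGTG 12.5% and 11.1%, and for TCACNCCA 5.10% and 4.53%. Among the members called lower, CCAAT stood in 13 of 17 windows (76.5%) and GGGCGG in 14 of 17 (82.4%). CCAAT stood in the Ebp window as well as in those of Hmgcs1 and Lss. A match describes letters in these windows, not binding.

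In the mevalonate pathway, 3 of 7 genes were called lower and 4 were not. Their summed level was 686 and 660 CPM in WT and 367 and 352 CPM in Mek1/2-tKO, with a median log2 fold change of -0.48. Hmgcs1 (ENSMUSG00000093930.2, GRCm38 chr13:119690379-119708260, plus strand), which condenses acetyl-CoA and acetoacetyl-CoA into HMG-CoA and whose upstream sequence is given above, had 241 and 223 CPM in WT and 99.3 and 91.2 CPM in Mek1/2-tKO. It was 2.44-fold lower, with a log2 fold change of -1.28 (SE 0.08, edgeR adjusted p = 3.39e-08). Acat2, the thiolase that makes acetoacetyl-CoA, had 147 and 137 CPM in WT and 61.1 and 62.4 CPM in Mek1/2-tKO (log2 fold change -1.20, SE 0.09). Mvd, which decarboxylates mevalonate diphosphate to isopentenyl diphosphate, went from 92.2 and 95.5 CPM to 50.8 and 45.2 CPM (log2 fold change -0.97, SE 0.10). In all 3 genes the genotypes were far apart in relation to the gap between replicates.

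The kinases of the pathway were less different. Pmvk, phosphomevalonate kinase, had 88.8 and 88.2 CPM in WT and 66.3 and 63.6 CPM in Mek1/2-tKO, which passed the adjusted p of edgeR (9.83e-04) but not the fold threshold. Mvk, mevalonate kinase, had 37.7 and 40.8 CPM in WT and 31.5 and 33.3 CPM in Mek1/2-tKO (log2 fold change -0.28, SE 0.12) and passed neither threshold (edgeR adjusted p = 0.0550). Idi1, the isomerase of isopentenyl diphosphate, had 73.3 and 71.9 CPM in WT and 55.2 and 52.5 CPM in Mek1/2-tKO, again under the fold threshold (log2 fold change -0.43, SE 0.10). The replicates of each gene were closer to each other than to the other genotype.

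Fdps, the synthase of farnesyl diphosphate, was counted at 5.59 and 4.05 CPM in WT and 3.04 and 3.83 CPM in Mek1/2-tKO (log2 fold change -0.48, SE 0.31, edgeR adjusted p = 0.198). Per kilobase of exon it was the lowest of the mevalonate genes in WT, at 1.15 RPKM against 14.7 RPKM for the next, Mvk. The authors counted uniquely mapped reads only, and part of the Fdps sequence is repeated in the processed pseudogene Gm3571 (chr10:93778660-93779719), to which 4928 and 4700 counts were assigned in WT and 2389 and 2410 in Mek1/2-tKO. In addition, 26.7% of the exon bases of Fdps are shared with Gm43738 on the same strand, which had 0 counts in all libraries. The sum of Fdps and Gm3571 was 5037 and 4778 counts in WT and 2436 and 2482 counts in Mek1/2-tKO, with a log2 fold change of -0.81 (SE 0.09, edgeR adjusted p = 5.12e-06). With such sums in place of the members' own counts, an alternative added after the data were seen, 24 of the 32 genes were lower and the median was -0.79.

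Copies were found for 4 other members by shared stretches of 100 bases in the GENCODE vM21 transcripts. Acaca shared 23.6% of its stretches with the pseudogene Gm5182, whose 1375 and 1444 counts in WT and 435 and 539 counts in Mek1/2-tKO stood beside 973 and 922 counts in WT and 244 and 324 counts in Mek1/2-tKO for Acaca itself. Idi1 shared 15.8% with Gm13502 (1903 and 1505 counts in WT, 1067 and 1119 counts in Mek1/2-tKO). Fdft1 shared 2.37% with Gm6781, and Acat2 shared 28.9% with Acat3. For Fdps the share with Gm3571 was 3.74%. The log2 fold changes of the sums were -1.44 for Acaca, -0.44 for Idi1, -0.71 for Fdft1 and -1.20 for Acat2, against -1.56, -0.43, -0.72 and -1.20 for the members alone. Only Fdps changed its call. From which locus the reads of a copy came was not tested, and levels of these 5 genes are uncertain for that reason. Acat3, a protein-coding gene, had only 90 and 55 counts in WT and 24 and 36 counts in Mek1/2-tKO.

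**Figure D3:**
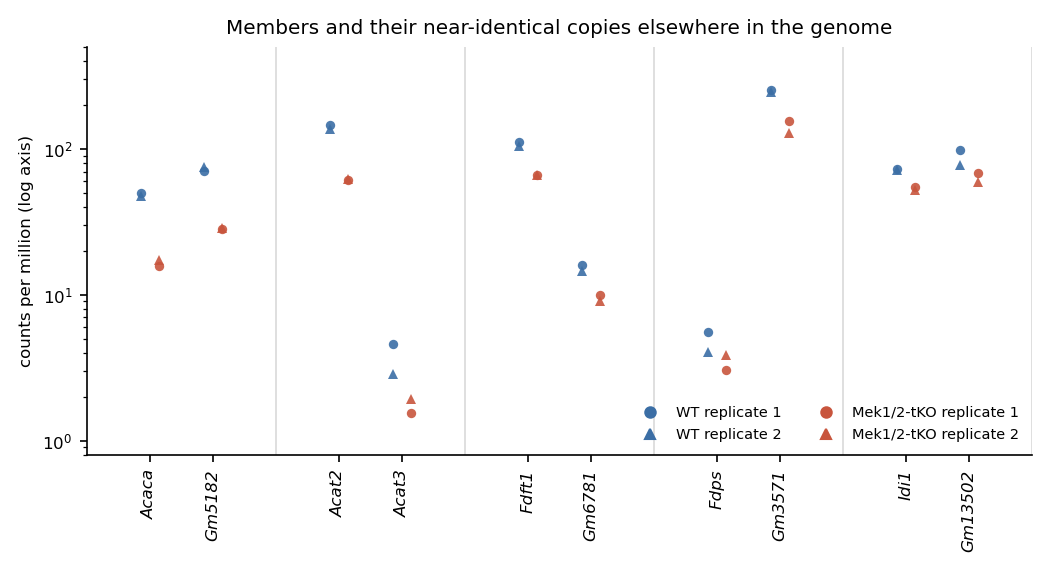
Level of the 5 genes with near-identical copies and of each copy in every library, in CPM on a log axis (circles, replicate 1. Triangles, replicate 2. Blue, WT. Red, Mek1/2-tKO). Gm3571 was counted at 253 and 244 CPM in WT and was lower in both Mek1/2-tKO libraries, as were the other 4 copies.

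In the sterol branch, which runs from squalene to cholesterol, 8 of 11 genes were called lower, with a median log2 fold change of -0.72. The summed level was 1336 and 1275 CPM in WT and 716 and 686 CPM in Mek1/2-tKO. Lss (ENSMUSG00000033105.12, GRCm38 chr10:76531588-76557138, plus strand), the lanosterol synthase that closes the sterol rings, had 145 and 146 CPM in WT and 51.9 and 43.7 CPM in Mek1/2-tKO. It was 3.04-fold lower (log2 fold change -1.61, SE 0.10, edgeR adjusted p = 1.99e-08), the largest decrease of the branch. Dhcr7, the reductase that turns 7-dehydrocholesterol into cholesterol, had 67.3 and 69.5 CPM in WT and 23.2 and 25.9 CPM in Mek1/2-tKO, 2.78-fold lower (log2 fold change -1.48, SE 0.11).

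Cyp51, the lanosterol demethylase, was the most abundant gene of the branch per kilobase in WT (96.6 RPKM), with 441 and 412 CPM in WT and 194 and 179 CPM in Mek1/2-tKO (log2 fold change -1.19, SE 0.08). Sqle, squalene epoxidase, fell from 178 and 187 CPM to 103 and 90.9 CPM (log2 fold change -0.92, SE 0.09). Fdft1, squalene synthase, fell from 112 and 105 CPM to 66.3 and 66.4 CPM (log2 fold change -0.72, SE 0.09), and 18.3% of its exon bases overlap Ctsb on the opposite strand. The first steps of the branch, Fdft1, Sqle, Lss and Cyp51, were thus all called lower. Nsdhl, a dehydrogenase of the demethylation complex, fell from 64.8 and 54.0 CPM to 34.3 and 34.9 CPM (log2 fold change -0.78, SE 0.12).

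The remaining steps were closer to the threshold. Sc5d, the sterol desaturase, had 99.2 and 87.6 CPM in WT and 60.6 and 62.9 CPM in Mek1/2-tKO (log2 fold change -0.60, SE 0.10) and was called lower by a narrow margin. Msmo1, the methyl sterol oxidase, had 112 and 110 CPM in WT and 84.9 and 84.2 CPM in Mek1/2-tKO (log2 fold change -0.39, SE 0.09), and Hsd17b7, its partner in demethylation, had 40.3 and 32.7 CPM in WT and 23.9 and 25.2 CPM in Mek1/2-tKO (log2 fold change -0.57, SE 0.13). Both passed the adjusted p and not the fold threshold. Tm7sf2, a sterol reductase whose exons are shared over 47.2% of their bases with Vps51 and Gm28374, was called lower, with 18.9 and 13.1 CPM in WT and 11.8 and 8.52 CPM in Mek1/2-tKO (log2 fold change -0.66, SE 0.22, edgeR adjusted p = 0.0194). Its call was lost in DESeq2, without WT replicate 1 (log2 fold change -0.37) and without Mek1/2-tKO replicate 2 (-0.45).

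Ebp, the sterol isomerase, was the only enzyme among the 32 genes that lay higher in both Mek1/2-tKO libraries, at 62.3 and 63.4 CPM against 56.7 and 58.7 CPM in WT. The difference did not pass the test (log2 fold change 0.12, SE 0.10, edgeR adjusted p = 0.301).

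The SREBP regulators include both factors and the proteins that move or retain them, and 4 of 5 were called lower. Srebf1, which encodes SREBP1, had 181 and 195 CPM in WT and 61.2 and 84.2 CPM in Mek1/2-tKO, 2.58-fold lower (log2 fold change -1.37, SE 0.12, edgeR adjusted p = 6.76e-07). Srebf2, which encodes SREBP2, had 521 and 552 CPM in WT and 324 and 379 CPM in Mek1/2-tKO (log2 fold change -0.61, SE 0.08). Per kilobase, Srebf2 was 2.26 and 2.22 times as high as Srebf1 in WT and 4.16 and 3.53 times as high in Mek1/2-tKO, and the ratio did not overlap between genotypes. The call of Srebf2 lay at the fold threshold and was lost without Mek1/2-tKO replicate 1 (log2 fold change -0.50) and without WT replicate 2 (-0.57).

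Scap, the escort of both factors, had 92.2 and 88.0 CPM in WT and 55.7 and 60.7 CPM in Mek1/2-tKO (log2 fold change -0.63, SE 0.10). Insig1, the retention factor that is itself a classic SREBP target, had 207 and 205 CPM in WT and 125 and 125 CPM in Mek1/2-tKO (log2 fold change -0.72, SE 0.08, edgeR adjusted p = 3.56e-06). Insig2, its relative that does not depend on SREBP in the same way, had 21.3 and 17.8 CPM in WT and 17.6 and 17.0 CPM in Mek1/2-tKO and was not called (log2 fold change -0.18, SE 0.15). The Insig2 libraries of the 2 genotypes nearly touched, whereas those of Insig1 were far apart. Per kilobase, Insig1 was 10.9 and 13.0 times as high as Insig2 in WT and 8.01 and 8.23 times as high in Mek1/2-tKO.

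The 3 transport genes went in different directions. Stard4, which carries cholesterol between membranes, had 154 and 145 CPM in WT and 72.1 and 69.9 CPM in Mek1/2-tKO (log2 fold change -1.07, SE 0.09, edgeR adjusted p = 2.56e-07). Abca1 (ENSMUSG00000015243.4, GRCm38 chr4:53030787-53159895, minus strand), which exports cholesterol to apolipoproteins, was the 1 member that rose, from 2.21 and 2.49 CPM to 9.11 and 5.22 CPM. It was 3.03-fold higher (log2 fold change 1.60, SE 0.33, edgeR adjusted p = 9.57e-04), with its 2 Mek1/2-tKO replicates far apart, and neither reached down to the WT level. Abcg1, the exporter to high-density lipoprotein, fell from 12.8 and 12.0 CPM to 6.59 and 7.93 CPM (log2 fold change -0.76, SE 0.20), so that the exporters moved in opposite directions. Abca1 is also expressed by macrophages, and the myeloid markers given above rose in the same libraries. Their part in the Abca1 result was not tested.

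In fatty acid synthesis all 6 genes fell, and their summed level went from 2433 and 2473 CPM in WT to 645 and 696 CPM in Mek1/2-tKO. Acly, ATP citrate lyase, which supplies the acetyl-CoA, had 556 and 583 CPM in WT and 227 and 257 CPM in Mek1/2-tKO (log2 fold change -1.23, SE 0.08). Acaca, acetyl-CoA carboxylase, which makes malonyl-CoA, fell from 49.9 and 47.8 CPM to 15.8 and 17.3 CPM (log2 fold change -1.56, SE 0.12). Fasn (ENSMUSG00000025153.9, GRCm38 chr11:120805846-120824547, minus strand), the synthase of palmitate, had 476 and 521 CPM in WT and 177 and 188 CPM in Mek1/2-tKO, 2.73-fold lower (log2 fold change -1.45, SE 0.08, edgeR adjusted p = 5.00e-09). The 3 consecutive steps from citrate to palmitate thus fell by 1.23 to 1.56 on the log2 scale. Elovl6, which elongates palmitate, fell from 38.3 and 44.6 CPM to 11.4 and 11.1 CPM, 3.69-fold lower (log2 fold change -1.88, SE 0.14).

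Of the stearoyl-CoA desaturases, which introduce the first double bond, Scd2 had the largest decrease of the 32 genes and Scd1 the smallest of the 6 genes of fatty acid synthesis. Scd2 (ENSMUSG00000025203.5, GRCm38 chr19:44293676-44306864, plus strand) had 1120 and 1095 CPM in WT and 110 and 113 CPM in Mek1/2-tKO. It was 9.90-fold lower (log2 fold change -3.31, SE 0.08, edgeR adjusted p = 1.80e-12), rank 80 among the 14330 tested genes ordered from the most lowered. Scd1, its neighbour on chromosome 19, had 192 and 181 CPM in WT and 103 and 109 CPM in Mek1/2-tKO, 1.77-fold lower (log2 fold change -0.82, SE 0.08, edgeR adjusted p = 2.03e-06). Per kilobase of exon, Scd2 was 5.18 and 5.35 times as high as Scd1 in WT and 0.953 and 0.924 times as high in Mek1/2-tKO. The 2 desaturases thus changed from a Scd2-dominated to an almost equal ratio. They share few stretches of 100 bases, 0.879% of those of Scd2 and 2.58% of those of Scd1 being found in other genes.

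**Figure D4:**
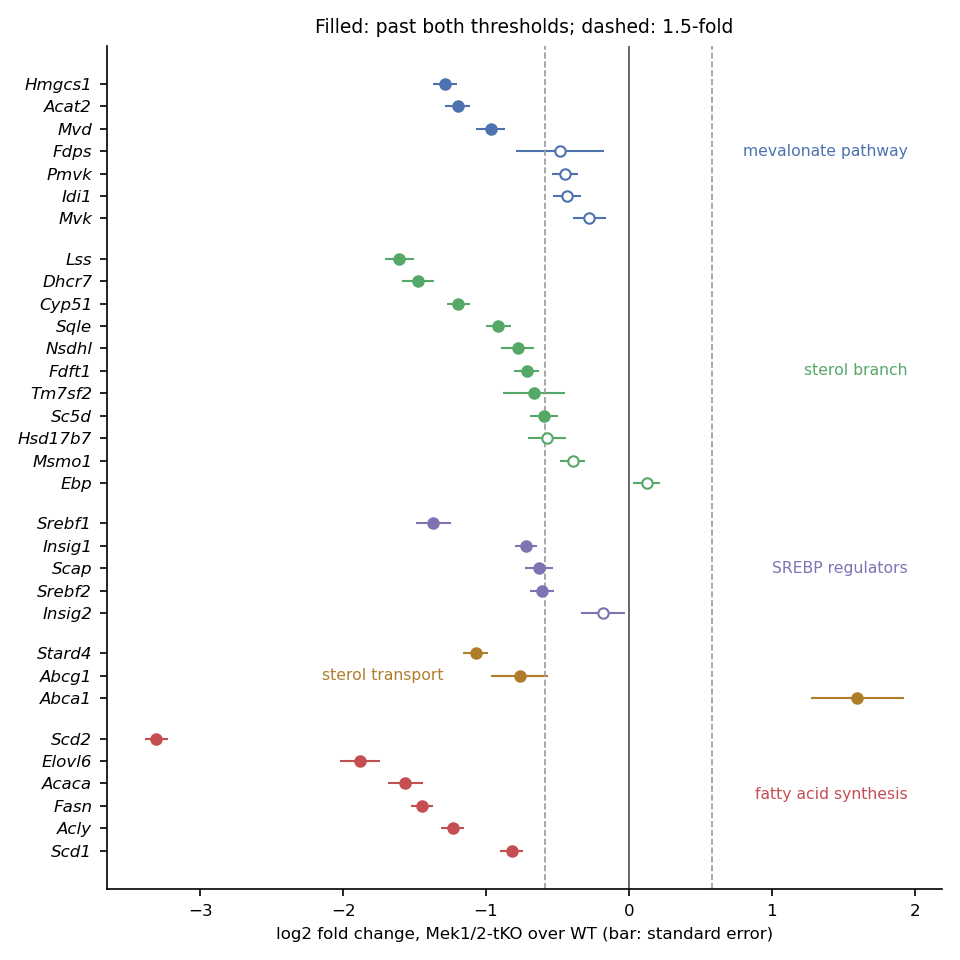
Log2 fold change of each of the 32 genes in Mek1/2-tKO over WT, grouped by role and ordered within each group, with bars for 1 standard error. Filled points passed both thresholds, open points did not, and dashed lines mark a 1.5-fold change. Scd2 lies lowest at -3.31 and Abca1 alone lies to the right of the upper line.

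The other genes of the pathways were read from 7 lists, 80 genes in all without the members. Of the 73 that could be tested, 17 were called lower and 5 higher, with a median log2 fold change of -0.11. Per list the counts ranged from none called to 6 of 11 lower, against the background of 16.4% lower and 19.3% higher given above.

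Other genes of cholesterol synthesis and uptake were lower in 6 of 11 tested and higher in none, in edgeR and in DESeq2 and without a higher gene at an unadjusted p under 0.05, with a median log2 fold change of -0.69. The lysosomal sterol carrier Npc2, the oxysterol-binding protein Osbp and the acetoacetyl-CoA synthetase Aacs were lower by log2 fold changes of -0.69, -0.69 and -0.84.

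Of the 12 genes that process or degrade the SREBP system, 3 were lower and 1 was higher, with a median of -0.35. Mbtps2, the protease that makes the second cut in SREBP, had 21.9 and 19.8 CPM in WT and 11.4 and 15.7 CPM in Mek1/2-tKO (log2 fold change -0.62, SE 0.17), a call that was lost without Mek1/2-tKO replicate 1 (-0.41) and without WT replicate 1 (-0.55). Fbxw7, the ubiquitin ligase subunit that marks nuclear SREBP for degradation, fell (log2 fold change -0.82, SE 0.15), as did Lpin1, a phosphatidate phosphatase that restrains nuclear SREBP (log2 fold change -1.58, SE 0.19). Syvn1, a ubiquitin ligase of the endoplasmic reticulum, rose from 37.5 and 38.5 CPM to 56.1 and 68.6 CPM (log2 fold change 0.72, SE 0.12), and its call was lost without Mek1/2-tKO replicate 2 (0.56). The members of this list thus moved both ways, and those that fell include activators and inhibitors of the factors.

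The LXR list without the members was split, with 2 of 6 tested genes higher, 2 lower and a median of 0.08. Mylip, a ubiquitin ligase and known LXR target, rose from 4.67 and 3.63 CPM to 30.4 and 32.3 CPM, 7.54-fold (log2 fold change 2.91, SE 0.18, edgeR adjusted p = 1.55e-08). Nr1h2, which encodes LXR beta, rose from 91.8 and 90.2 CPM to 142 and 161 CPM (log2 fold change 0.74, SE 0.09). Rxra, a partner of the LXR receptors, and Lpcat3, a phospholipid remodelling enzyme and LXR target, fell by 0.75 and 0.92 on the log2 scale. Among the targets, Mylip and Abca1 were therefore higher, while Abcg1, Lpcat3 and Srebf1 were lower. Of the 5 oxysterol-producing genes only Cyp27a1, the mitochondrial sterol hydroxylase, could be tested. It had 0 counts in both WT libraries and 72 and 66 counts in Mek1/2-tKO, at least 26.4-fold higher against a limit of 3 counts per library. The myeloid marker Adgre1 had 0 counts in both WT libraries and 66 and 83 counts in Mek1/2-tKO. The part of myeloid markers in the Cyp27a1 result was not tested.

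None of the 12 genes of isoprenoid use and prenylation, which lead from the mevalonate pathway to prenylated proteins, dolichol and ubiquinone, was called by edgeR, and their median log2 fold change was -0.06. At an unadjusted p under 0.05, 3 of the 12 were higher and 2 lower. At the adjusted p alone 2 were lower, while Rce1 and Pdss1 were higher. Their log2 fold changes were 0.40 and 0.50 (edgeR adjusted p = 0.00669 and 0.0168). Pggt1b, a subunit of a protein prenyltransferase that is named after its values were seen, had 20.6 and 23.2 CPM in WT and 13.8 and 15.4 CPM in Mek1/2-tKO (log2 fold change -0.58, SE 0.15, edgeR adjusted p = 0.00523) and just missed the fold threshold. It was called lower in DESeq2, which called no other gene of the list, with library size alone, without a filter, with a replicate block, without Mek1/2-tKO replicate 2 and without WT replicate 1, at log2 fold changes of -0.68 to -0.59. A p that misses the threshold does not show that levels were equal.

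Of 15 tested genes of fatty acid supply, elongation and desaturation that are not members, 5 were lower and 1 was higher. Fads2, the delta-6 desaturase of polyunsaturated fatty acids, fell from 73.3 and 78.4 CPM to 5.94 and 8.04 CPM, 10.8-fold (log2 fold change -3.43, SE 0.15, edgeR adjusted p = 4.62e-10), a decrease of the size seen for Scd2. Fads1, the delta-5 desaturase, fell from 43.8 and 42.4 CPM to 13.8 and 14.5 CPM (log2 fold change -1.60, SE 0.13). Elovl5, Acss2 and the citrate carrier Slc25a1 were lower by log2 fold changes of -0.92, -1.13 and -0.67, and the call of Slc25a1 was lost without Mek1/2-tKO replicate 1 (-0.57). Me1, the malic enzyme that yields NADPH, was called higher at 6 to 22 counts per library (log2 fold change 1.73, SE 0.66, edgeR adjusted p = 0.0390), and this call was lost in DESeq2, without the filter on low counts, with a replicate block and without any 1 library. Genes of fatty acid oxidation, the opposite pathway, had 1 of 16 lower, Hadh at a log2 fold change of -0.67 (-0.57 and not called without Mek1/2-tKO replicate 1), and none higher, with a median of 0.02. At an unadjusted p under 0.05, edgeR gave 4 of the 16 lower and 1 higher, and DESeq2 called 1 lower and 0 higher.

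**Figure D5:**
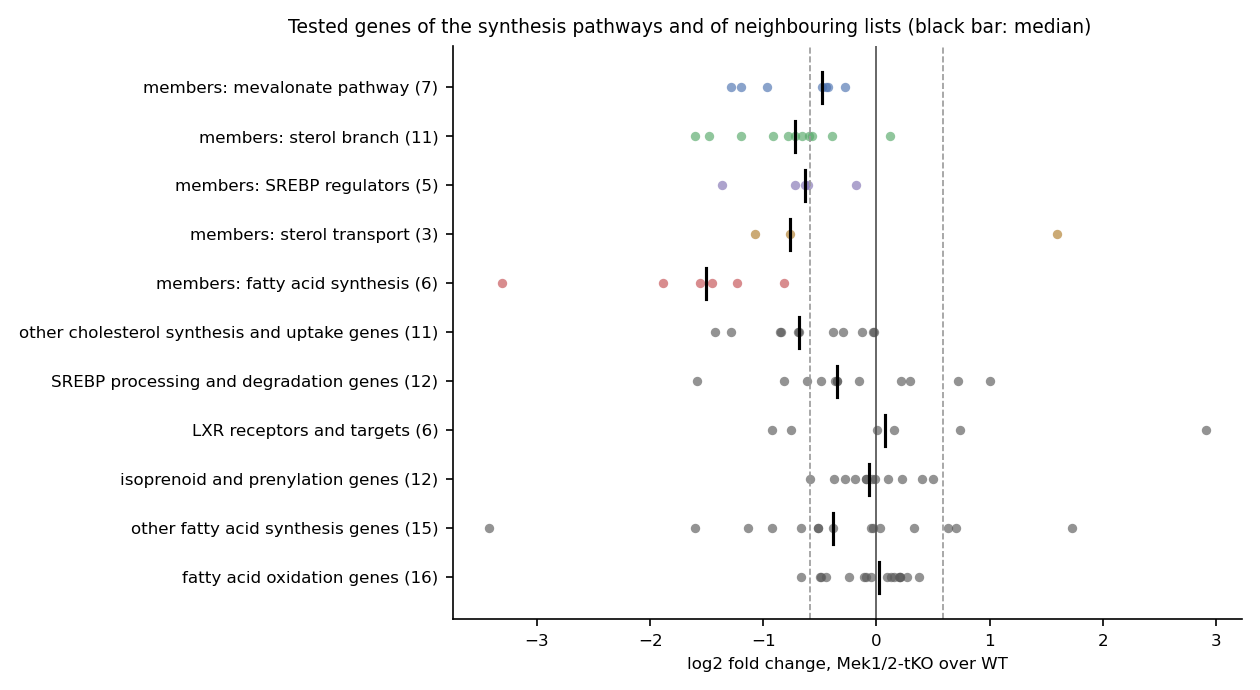
Log2 fold change in Mek1/2-tKO over WT of every tested gene of the 5 groups of members (coloured) and of 6 lists of neighbouring pathways without the members (grey), with the number of tested genes in brackets. Black bars mark medians and dashed lines a 1.5-fold change. The medians run from -1.51 for the fatty acid synthesis members to 0.08 for the LXR list.

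Cell-cycle genes were also counted, since dividing T cells make lipids. Of 12, 5 were lower and none higher in edgeR and in DESeq2. By edgeR, 16.4% of all tested genes were lower and 19.3% higher. No gene of the list was higher at an unadjusted p under 0.05. At the adjusted p alone 8 of the 12 were lower, against 27.2% of all tested genes. The sums were 4218 and 4272 CPM in WT and 2969 and 2969 CPM in Mek1/2-tKO. The proliferation marker Mki67 fell by 1.21 and Top2a by 1.23 on the log2 scale. Ccna2, Mcm5 and Rrm2 passed the adjusted p and not the fold threshold, with log2 fold changes of -0.28, -0.41 and -0.49. Cdk1, Pcna and Tyms were not called, with log2 fold changes of 0.01, 0.05 and 0.03. The part of the cell cycle in the lower level of the lipid genes was not tested.

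Among the alternatives, 19 of the 23 genes were called lower in all 12 fits that kept both thresholds. The other 4 were Tm7sf2, Sc5d, Srebf2 and Scap, whose log2 fold changes lay between -0.66 and -0.60. At a fold change of at least 2 the number was 12 of 32, and Abca1 was still called higher.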

How the data were processed

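RNA-seq of 2 WT and 2 Mek1/2-tKO libraries, labelled as polarized CD4+ T cells, was analysed. The markers in the Mek1/2-tKO libraries met that label only in part, so that the sorted population may differ from the labelled one. The authors trimmed reads with Trimmomatic 0.36, mapped them to GRCm38 (the methods write the mapper as STRA), counted the uniquely mapped ones per gene with featureCounts of Subread 1.5.1, and deposited raw counts per gene, without normalization. The library kit was stranded, and neither the annotation release nor the strand setting of the counting is given in the sources used here. DESeq2 1.40.1 and R 4.3.0 are also named in the submitters' processing notes.

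Counts were tested with edgeR 4.0.16 (limma 3.58.1, R 4.3.3): filterByExpr, TMM scaling, a robust quasi-likelihood fit and Benjamini-Hochberg adjustment over all 14330 tested genes. The common dispersion was 0.00842. Library totals were 18858860 and 18807774 counts in WT and 16330802 and 18931090 in Mek1/2-tKO, and the limit set by a count of 0 was 3 counts, 0.154 to 0.194 CPM by library (counting error only). Replicates differed by more than sampling noise (chi-square per gene 4.07 in WT and 10.1 in Mek1/2-tKO). Symbols were matched to 54723 of 54752 identifiers, and RPKM used the exon length in the count tables.

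All 32 members are given by name, as are Map2k1 and Map2k2, called genes of the other pathway lists, genes that overlap or copy a member, and defining markers. The members and lists were chosen with earlier results of these data known, so they are not independent evidence of a direction. No list was tested as a set. Some genes of the other pathway lists are counted in them but are not reported here by name. Alternatives were DESeq2 1.42.0, edgeR with the size factors of DESeq2 or with library size alone, testing without a filter or with a minimum of 10 counts per library, stricter thresholds, a replicate block, leaving out each library and, added after the data were seen, the reads of copies. The test was run on simulated counts first. Exon overlap, copies and promoter motifs were computed in Python 3.11.15 (pandas 2.3.3, numpy 2.4.6), with figures in matplotlib 3.10.9. Other experiments of the study were not analysed here.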

Additional observations from a re-analysis of the deposited data

How the results depend on the processing

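Under the alternatives that kept both thresholds and all libraries, 22 to 24 members were lower and 1 was higher, against 23 and 1. Leaving out 1 library gave 20 to 23 lower and 1 higher, and the lowest number came without Mek1/2-tKO replicate 1. The median log2 fold change of the members was -0.86 when scaled by library size alone and -0.87 to -0.72 when 1 library was left out. A fold change of at least 2 left 12 members lower, 6 genes of the other lists lower and 3 higher, and 1040 lower and 1725 higher genes of all. With at least 10 counts in every library, 3 genes of the other lists were higher in place of 5, since low genes were then not tested. Without 1 library, the other lists had 14 to 19 genes lower and 4 to 5 higher, and all genes 2119 to 2627 lower and 2338 to 2791 higher. A lone library was assumed to vary like the other genotype. No called value changed sign. Hsd17b7 was called lower with library size alone (log2 fold change -0.65), without Mek1/2-tKO replicate 2 (-0.62) and without WT replicate 2 (-0.71). Sc5d missed the fold threshold with at least 10 counts in every library (-0.58), without Mek1/2-tKO replicate 1 (-0.57) and without WT replicate 1 (-0.51), and Scap without Mek1/2-tKO replicate 1 (-0.57). The cause was not tested.

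The genotypes share replicate numbers, but deviations of same-numbered libraries correlated at -0.03 across genes, so the numbers were not taken as pairs. With a replicate block, 23 members were lower and 1 was higher, the median was -0.77, and 2300 genes of all were lower and 2652 higher. No member changed its call. Depth limits the precision of genes with few counts, such as Me1, with 6 to 22 counts per library.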
